A study of Mus musculus with 6 samples.

Results

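The 10 genes described here encode the actins of muscle and a group of proteins that bind actin filaments or drive them in contractile cells, and they were measured in mouse 3T3 cells depleted of the SAFB proteins. They are Acta1, Acta2 and Actg2 (muscle actins), Tagln and Tagln2 (transgelins), Cnn1 and Cnn2 (calponins), Myl9 (a myosin regulatory light chain), and Tpm1 and Tpm2 (tropomyosins). The genes were chosen by name as a family, with their values in these same libraries already known, so the comparison of control and depleted cells is given for them as a description with no test. They are 10 of 54532 genes listed in the count tables and 10 of 19452 genes that had at least 10 reads over the 6 libraries. All 10 genes had at least 10 reads in the 3 control libraries alone and in the 3 depleted libraries alone, so none of them entered only through the group in which it was high.

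Poly(A)+ RNA of Flp-In 3T3 cells, a fibroblast line derived from mouse embryos that carries a site for inserting transgenes, was sequenced in 3 biological replicates per group. Control cells received a control siRNA. SAFB KD cells received a mixture of siRNAs against the transcripts of Safb (the gene of SAFB1), of Safb2 and of Sltm, which encode nuclear RNA-binding proteins. The siRNA against Sltm was the reagent designed for the human gene, whose target is also in the mouse transcript. Per the methods of the study, cells were transfected while being plated, transfected again a day later and harvested on the third day, so the values belong to a transient depletion in 1 cell line. The libraries held 33323307 to 53441129 counted reads. Target RNA remained in the SAFB KD libraries. Safb lay at 90.2 to 96.1 CPM (reads of a gene per 1000000 counted reads, scaled for library composition) in control libraries and at 44.5 to 48.5 CPM in SAFB KD, Safb2 at 45.7 to 49.0 and 29.7 to 30.4, and Sltm at 96.3 to 106 and 61.0 to 62.0. Control replicate 3 stood apart from the other control libraries on the second principal component (-44.2 against 23.1 and 26.5). Values without it are given where a call was lost, a sign changed or a value moved by 1.5 times or more.

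Contractile cells slide myosin filaments along actin filaments. In smooth muscle, phosphorylation of the regulatory light chain starts the myosin motor, while tropomyosin lies along the actin filament and calponin and transgelin bind it and steady it. Fibroblasts make mainly the cytoplasmic actins, and those that turn into myofibroblasts, as in wound repair, add smooth muscle alpha actin to their stress fibres. Many of these genes carry a CArG box in the promoter, a DNA element bound by serum response factor (SRF) with its coactivators, the myocardin-related factors MRTF-A and MRTF-B. These coactivators are held in the cytoplasm by monomeric actin and enter the nucleus when actin polymerises.

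The CArG boxes near the start sites are shown because they are the sequence feature that the promoters of these genes are known for. A CArG box was searched as CC, 6 bases each A or T, then GG, a pattern that reads alike on both strands, from 250 bases before to 50 bases after the RefSeq transcript start (GRCm38.p6). The promoter table held 8 of the 10 genes. Tagln and Actg2 had no entry. Each line below gives 30 bases, 5′ to 3′ on the strand of the gene, with the box in capitals.
Acta1: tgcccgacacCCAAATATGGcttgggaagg
Myl9: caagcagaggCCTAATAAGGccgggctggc
Cnn2: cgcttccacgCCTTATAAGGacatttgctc
Acta2, distal: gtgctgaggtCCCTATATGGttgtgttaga
Acta2, proximal: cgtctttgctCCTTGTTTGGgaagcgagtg
Tpm1, distal: gctcgggtccCCATATATAGtcatatccac
Tpm1, proximal: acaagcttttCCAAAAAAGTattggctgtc
Actg1, cytoplasmic gamma actin: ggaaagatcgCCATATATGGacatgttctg
Actc1, cardiac actin: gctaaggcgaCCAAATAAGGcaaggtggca

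Exact boxes were found in 3 of the 8 promoters, those of Acta1 (chr8:123894829-123894858, minus strand, 73 bases before the start), Myl9 (chr2:156775293-156775322, plus strand, 161 bases before) and Cnn2 (chr10:79988534-79988563, plus strand, 56 bases before). Allowing 1 mismatch brought in Acta2, with boxes 84 and 34 bases before the start (chr19:34255438-34255467 and chr19:34255388-34255417, minus strand), and Tpm1, with boxes 221 and 80 bases before it (chr9:67049415-67049444 and chr9:67049274-67049303, minus strand), for 5 of 8. In all 32851 promoters of the table, 1.63% held an exact box and 21.11% a box with up to 1 mismatch. In the 14654 promoters of tested genes the shares were 1.38% and 17.14%. Both Acta2 windows and the proximal Tpm1 window lay inside an exon of a longer transcript in the GENCODE annotation, and the windows of Acta1, Myl9 and Cnn2 lay outside annotated exons. The pattern was not met, even with 1 mismatch, in the windows of Tagln2, Cnn1 and Tpm2, which says only that these letters are not in those 300 bases. Of the genes with an exact box, Acta1 and Myl9 were higher in SAFB KD and the groups overlapped for Cnn2, and of those with no match Tagln2 and Tpm2 were higher and the groups overlapped for Cnn1. Of the genes with 1 mismatch, Acta2 was higher and Tpm1 lower. Tagln and Actg2, which had no promoter entry, were higher. The genes were chosen with their values known, so nothing is read from this listing.

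The smooth muscle actin Acta2 (chr19:34241090-34255590) was the most abundant muscle actin. It lay at 85.2, 88.7 and 91.3 CPM in the control libraries and at 214, 214 and 219 CPM in the SAFB KD libraries. All SAFB KD values were above all control values, and the gap between the groups was far wider than the spread within either. The fold change on the log2 scale was 1.29 (SE 0.03), or 2.45-fold. Actg2 (chr6:83512905-83536265), the gamma actin of enteric smooth muscle, was present at low levels, with 27, 37 and 29 reads in control and 114, 119 and 138 reads in SAFB KD. These reads made 0.622, 0.911 and 0.863 CPM against 3.24, 2.76 and 2.63 CPM, groups that did not overlap, with a log2 fold change of 1.85 (SE 0.20). Acta1 (chr8:123891769-123894751), the skeletal muscle actin, was near the limit of detection, with 5, 8 and 1 reads in control and 14, 17 and 28 in SAFB KD. Every SAFB KD library held more Acta1 reads than every control library, also in CPM (0.398, 0.394 and 0.534 CPM against 0.115, 0.197 and 0.0298), and the log2 fold change was 1.89 (SE 0.53). The size of the Acta1 change rested on these few reads: it was 2.49 without control replicate 2 and 1.496 without control replicate 3. Since the RNA came from whole cultures, more cells with a transcript and more transcript per cell cannot be told apart for any of these genes.

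**Figure D1:**
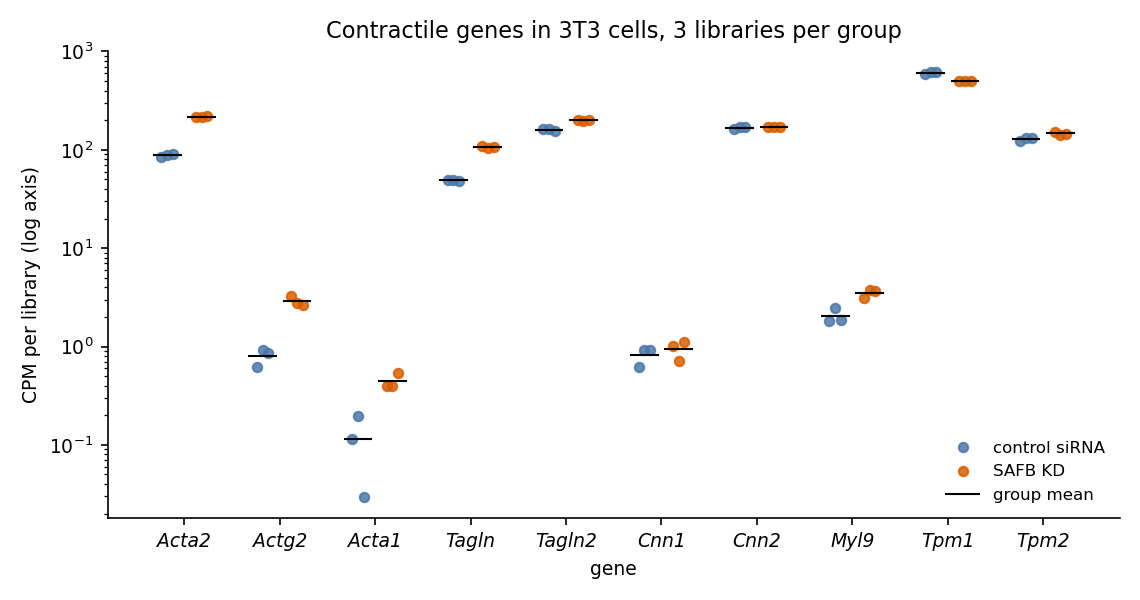
CPM of the 10 contractile genes (x axis) in each library, on a log axis. Points are the 3 control siRNA and 3 SAFB KD libraries and lines are group means. The groups are apart for 8 genes, with SAFB KD above control for 7 and below for Tpm1, and they overlap for Cnn1 and Cnn2. The groups are also apart for 49.0% of all tested genes, and the 10 genes were chosen with this contrast in view.

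Tagln (chr9:45929619-45936058), which encodes transgelin or SM22 alpha, an actin-binding protein used as an early marker of smooth muscle, was measured at 49.3, 49.8 and 48.0 CPM in control and 108, 105 and 106 CPM in SAFB KD. The replicates differed by 1.90% (coefficient of variation) in control and 1.41% in SAFB KD, and the log2 fold change was 1.12 (SE 0.04), or 2.17-fold. Tagln2 (chr1:172500047-172507380), the transgelin of fibroblasts, platelets and other cells outside muscle, lay at 164, 162 and 154 CPM in control and 202, 197 and 201 CPM in SAFB KD. The groups did not overlap and the log2 fold change was 0.32 (SE 0.03). Per kilobase of exon, Tagln made up 24.0 to 24.6% of the summed transgelin level in control libraries and 35.5 to 35.9% in SAFB KD, while Tagln3, the neuronal transgelin, had 1 read in all 6 libraries. The exons of Tagln overlap those of Pcsk7 by 108 bases and of the antisense transcript Gm48529 by 1241 bases, both on the opposite strand, and Gm48529 held 19 to 39 reads in control and 37 to 53 in SAFB KD.

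The calponins bind actin and slow the myosin motor. Cnn1 (chr9:22099216-22109630), the smooth muscle form, was scarce, with 27, 37 and 31 reads in control and 36, 31 and 59 in SAFB KD (0.622, 0.911 and 0.923 CPM against 1.02, 0.719 and 1.12 CPM). The groups overlapped, and with a log2 difference of 0.24 and an SE of 0.27 no change of Cnn1 was detectable at this depth. Cnn2 (chr10:79988584-79996062), the form found in fibroblasts and many other cells, was abundant and nearly level, at 162, 170 and 171 CPM in control and 171, 170 and 172 CPM in SAFB KD. Its log2 difference was 0.03 (SE 0.03), and its sign changed when control replicate 1 was left out. Cnn3, the acidic calponin, lay at 330 to 349 CPM in control and 333 to 348 CPM in SAFB KD (log2 fold change 0.02, SE 0.03, adjusted p = 0.699 by edgeR's quasi-likelihood test), and its sign changed without control replicate 3. For all 3 calponins the control and SAFB KD libraries overlapped.

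Myl9 (chr2:156775420-156781658), the regulatory light chain typical of smooth muscle myosin, had 79, 100 and 62 reads in control and 109, 162 and 193 in SAFB KD. These reads made 1.82, 2.46 and 1.85 CPM against 3.10, 3.76 and 3.68 CPM. The lowest SAFB KD library was above the highest control library, and the log2 fold change was 0.79 (SE 0.15), or 1.72-fold.

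Tropomyosins form coiled coils along the groove of the actin filament and set which proteins can bind it. Tpm1 (chr9:67022590-67049406), the most abundant of the 10 genes in CPM, lay at 591, 618 and 613 CPM in control and 495, 503 and 497 CPM in SAFB KD. It was the only gene of the 10 with every SAFB KD library below every control library, with a log2 fold change of -0.29 (SE 0.03). Tpm2 (chr4:43514711-43523765), or beta tropomyosin, lay at 123, 131 and 132 CPM in control and 153, 142 and 145 CPM in SAFB KD, a log2 fold change of 0.19 (SE 0.03) with no overlap of the groups. Tpm1 yields both muscle and cytoplasmic isoforms by alternative promoters and splicing, and 21 transcripts are annotated for it, so a count for the gene does not say which isoforms were lower. Tpm4 fell, from 828 to 871 CPM down to 725 to 755 CPM (log2 fold change -0.21, SE 0.03, adjusted p = 8.33e-08), and Tpm3 lay at 365 to 390 and 389 to 394 CPM (0.05, SE 0.03, adjusted p = 0.202). Per kilobase, Tpm2 made 7.36 to 7.61% of the 4 tropomyosins in control and 9.31 to 10.1% in SAFB KD, and Tpm1 made 15.9 to 16.0% and 14.4 to 14.8%. Of the 7 family members outside the 10 described genes, 5 were tested. Of these 5, 1 was higher (Actb), 2 were lower (Actg1 and Tpm4) and 2 were not called (Cnn3 and Tpm3). Of all tested genes, 21.4% were higher and 20.1% lower. Of those that averaged 1 CPM or more, 31.6% were higher and 28.7% lower.

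**Figure D2:**
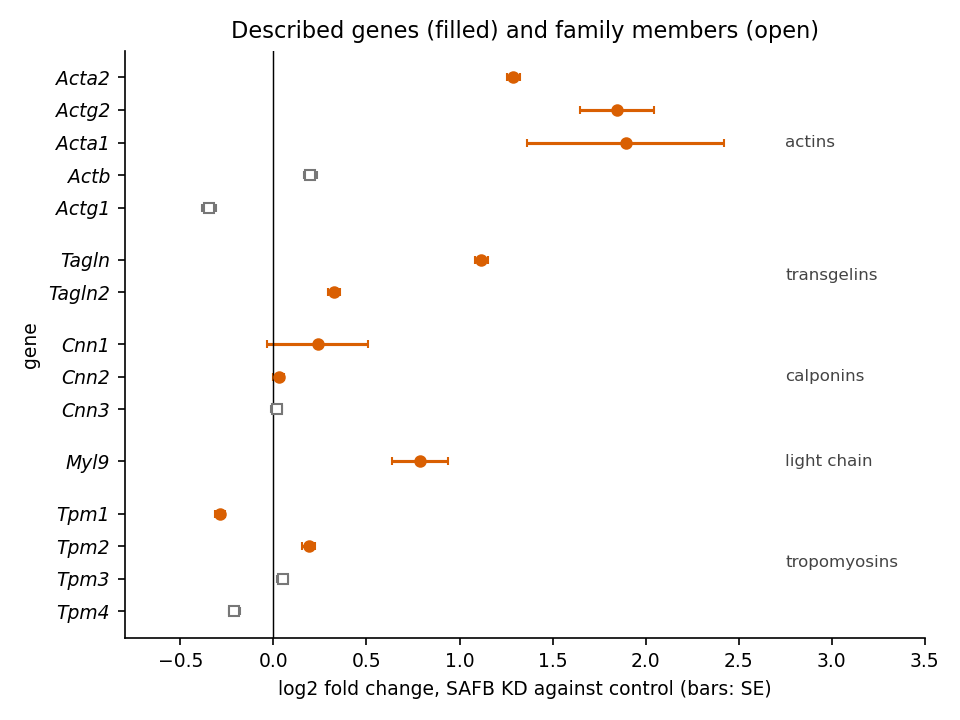
Log2 fold change of SAFB KD against control (x axis, bars are SE of the edgeR fit) for the 10 described genes (filled circles) and for genes of the same families (open squares), grouped by family. The muscle actins and Tagln lie above 1, while calponins and tropomyosins lie close to 0.

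In the fit over all genes, 7 of the 10 were called higher (Acta1, Acta2, Actg2, Tagln, Tagln2, Myl9 and Tpm2), 1 lower (Tpm1) and 2 neither way (Cnn1 and Cnn2). Of all 19452 tested genes, 21.4% were called higher and 20.1% lower, 41.5% in all, at an adjusted p under 0.05. The groups were apart for 8 of the 10, and for 49.0% of all tested genes. Since the genes were chosen with this contrast in view, nothing is read from these counts.

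The order of the genes by level was set per kilobase of annotated exon, so that genes of different length could be compared. In control libraries Tpm1 led with 93.7 ± 2.21 CPM per kb (SD, n = 3), followed by Tagln2 (76.8 ± 2.62), Cnn2 (68.2 ± 1.97), Tpm2 (44.2 ± 1.75), Acta2 (40.3 ± 1.38) and Tagln (24.7 ± 0.468). A wide gap separated these 6 genes from Myl9 (1.76 ± 0.312 CPM per kb), Actg2 (0.513 ± 0.0994), Cnn1 (0.299 ± 0.0622) and Acta1 (0.0742 ± 0.0544). In control cells no gene overlapped the next in this order. In SAFB KD libraries Acta2 stood first, with 98.3 ± 1.39 CPM per kb, ahead of Tagln2 (96.1 ± 1.25), Tpm1 (76.8 ± 0.614) and Cnn2 (69.4 ± 0.403). The ranges of Acta2 and Tagln2 came close, with the lowest Acta2 library at 97.4 and the highest Tagln2 library at 97.0 CPM per kb. Tagln (53.6 ± 0.754) passed Tpm2 (50.4 ± 1.94), and the 4 scarce genes kept their order, with overlapping ranges for Cnn1 (0.349 ± 0.0771) and Acta1 (0.288 ± 0.0518). The length used is the union of all annotated exons, which is long for genes with many isoforms such as Tpm1 and lowers their value per kilobase.

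Acta2 gained ground within the actins as a whole. Beta actin (Actb), the main actin of fibroblasts, lay at 2467, 2187 and 2113 CPM in control and 2620, 2558 and 2587 CPM in SAFB KD and rose (log2 fold change 0.20, SE 0.03, adjusted p = 6.37e-06). Cytoplasmic gamma actin (Actg1) fell from 529, 477 and 443 CPM to 370, 383 and 387 CPM (log2 fold change -0.35, SE 0.04, adjusted p = 5.67e-10). The directions of Actb and Actg1 were the same under the other library scalings. Cardiac actin (Actc1), whose promoter holds an exact CArG box, had no read in any library. Per kilobase, Acta2 made 3.35, 3.89 and 4.17% of the summed level of the 5 detected actins in control and 8.01, 8.15 and 8.24% in SAFB KD. Actb kept a share of 78.7 to 79.4% in control and 79.6 to 80.4% in SAFB KD, and Actg1 went from 16.7 to 17.3% down to 11.4 to 12.0%. Acta1 and Actg2 together stayed far below 1% in both groups.

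How well reads can be told apart differs among these actins. Of all 75-base stretches of the Actg1 transcripts, 33.45% also occur in another gene, mostly processed pseudogenes, against 1.58% for Actb, 0.39% for Acta1 and none for Acta2, Actg2 and the other 7 described genes. Reads that align to several places are left out by the counting described in the methods. The level of Actg1 and its share are therefore uncertain. The read counts of Acta2 and Actg2 are not touched by this at that length. Their shares are, because Actg1 is part of the summed actin level.

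**Figure D3:**
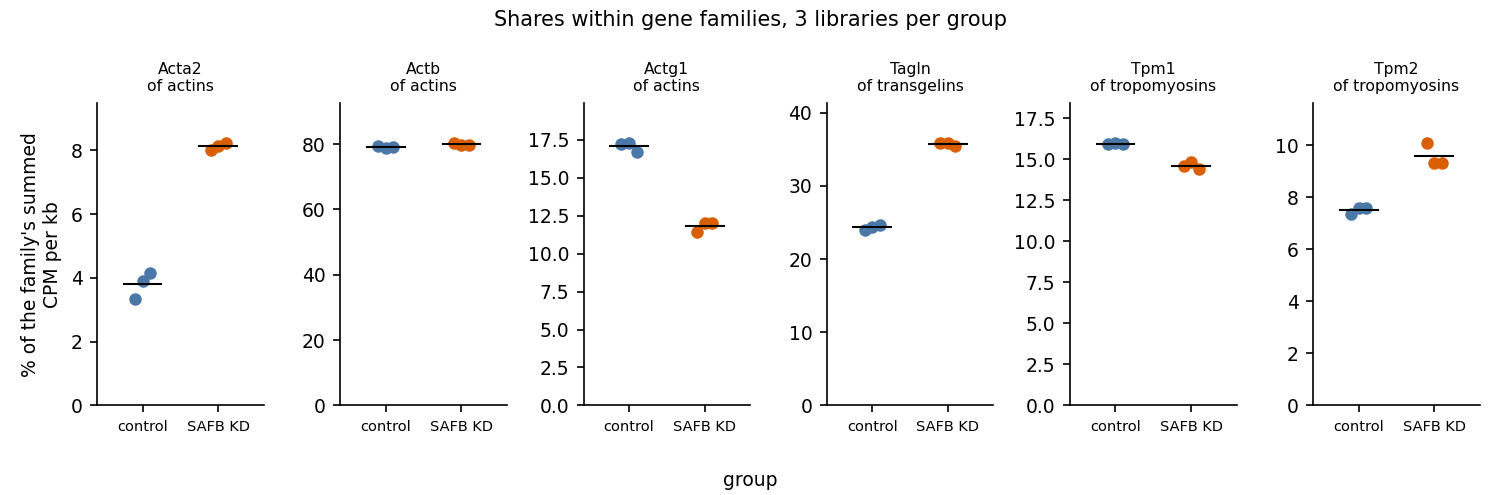
Share of a gene in the summed CPM per kb of its family (y axis, from 0), by group, with 1 point per library and a line at the mean. Acta2 is at 3.35 to 4.17% of actins in control and 8.01 to 8.24% in SAFB KD, Tagln at 24.0 to 24.6% and 35.5 to 35.9% of transgelins, and the tropomyosin shares shift less.

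The identity of the cells was checked on marker genes. All 12 fibroblast markers were above 1 CPM, with a summed level of 20018 to 21886 CPM in control and 18794 to 19258 CPM in SAFB KD. Of these 12, 2 were higher, 7 were lower and 3 were not called. That is 16.7% higher and 58.3% lower, against 21.4% and 20.1% of all tested genes. Among tested genes that averaged 1 CPM or more, 31.6% were higher and 28.7% lower. Pdgfra, the PDGF receptor alpha chain, fell from 364 to 369 CPM down to 141 to 144 CPM (log2 fold change -1.36, adjusted p = 3.94e-31), and the matrix proteoglycans Dcn (0.46, adjusted p = 9.45e-16) and Lum (0.43, adjusted p = 1.73e-12) rose. Among the 9 markers of vascular smooth muscle and pericytes, 2 were above 1 CPM (Cspg4 and Mcam), and Myocd, an SRF coactivator of smooth and cardiac muscle, and Kcnj8 had no read. The summed level of this list was 89.8 to 97.0 CPM in control and 98.9 to 104 CPM in SAFB KD, nearly all of it from Cspg4 (84.0 to 90.3 and 94.4 to 99.0 CPM, adjusted p = 0.00145), whereas Mcam fell (log2 fold change -0.70, SE 0.13, adjusted p = 1.39e-05). Myh11, the smooth muscle myosin heavy chain, lay at 0.0893 to 0.148 CPM in control and 0.142 to 0.381 CPM in SAFB KD and was not called (adjusted p = 0.101). None of the 10 skeletal muscle markers reached 1 CPM, and Myod1, Myog, Myf5 and Myf6 had no read. Of 9 cardiac markers, 2 were above 1 CPM and both rose, Tnnt2 (cardiac troponin T) from 42.1 to 45.9 CPM up to 77.1 to 78.3 CPM (adjusted p = 5.4e-20) and Nkx2-5 (a heart transcription factor) from 3.67 to 4.29 up to 5.82 to 6.31 CPM (adjusted p = 1.48e-05), while Myl2 had no read. The summed cardiac list was 46.3 to 50.2 CPM in control and 83.0 to 84.8 CPM in SAFB KD. Endothelial markers summed to 8.10 to 8.48 and 9.46 to 10.4 CPM, leukocyte markers to 6.28 to 6.77 and 8.55 to 10.6 CPM, and epithelial markers to 0.830 to 1.03 and 0.858 to 1.39 CPM, with no read for Kdr, Epcam and Krt18. Among them, Cd68 rose (0.99 on the log2 scale, adjusted p = 1.14e-09) and Pecam1 rose (0.72, adjusted p = 0.0187, lost in 3 of the 6 fits without 1 library), and Cdh5 (0.19, adjusted p = 0.0816) and Lyz2 (-0.27, adjusted p = 0.167) were not called. Their part in the values of the contractile genes was not tested.

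Whether other genes of smooth muscle behaved like Acta2 and Tagln was asked with a list of 23, of which 20 were tested. In SAFB KD 5 of the 20 were higher, 7 were lower and 8 were not called. That is 25.0% higher and 35.0% lower, against 21.4% and 20.1% of all tested genes and 31.6% and 28.7% of those that averaged 1 CPM or more. The median log2 fold change was -0.06, against 0.01 over all tested genes. The median of the 10 described genes was 0.56 on the same scale, but those genes were chosen with their values known, so nothing is read from the gap. Cald1 (caldesmon, which links actin and myosin) rose from 1802 to 1880 CPM up to 2177 to 2219 CPM (log2 fold change 0.26, adjusted p = 1.78e-10). Nexn, a protein of actin attachment sites, also rose (0.33, adjusted p = 1.75e-05). Csrp2, a LIM protein of vascular smooth muscle, fell from 138 to 143 CPM down to 75.4 to 79.0 CPM (-0.87, adjusted p = 6.46e-23), and Itga8, the alpha 8 integrin, fell as well (-0.68, adjusted p = 4.94e-11). The count of genes called higher in this list was 3 when control replicate 3 or SAFB KD replicate 2 was left out.

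Of 22 genes of the myosin II motor and of the kinases, phosphatases and GTPases that set its activity, 6 were higher, 6 were lower and 10 were not called, with a median log2 fold change of 0.02. Each direction held 27.3% of the list, against 21.4% higher and 20.1% lower among all tested genes. The shares among tested genes that averaged 1 CPM or more were 31.6% higher and 28.7% lower. The rises beside that of Myl9 were small: Rhoc 0.31 (adjusted p = 3.32e-10), Rhob 0.30 (adjusted p = 7.8e-09), Ppp1cb, the catalytic subunit of myosin phosphatase, 0.28 (adjusted p = 1.8e-10), Myl6, the essential light chain, 0.23 (adjusted p = 2.75e-08) and Rhoa 0.18 (adjusted p = 5.14e-06). Ppp1r12c, a targeting subunit of the same phosphatase, fell (-0.44, adjusted p = 5.19e-09). The other light chain genes of the list did not rise. Myl12a (-0.09, adjusted p = 0.0372) and Myl6b (-0.26, adjusted p = 0.0483) were lower, and Myl12b was not called (-0.52, adjusted p = 0.0625). The count of lower genes was 3 without control replicate 1 and 8 without control replicate 3.

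Srf itself lay at 29.5, 29.6 and 29.2 CPM in control and 30.2, 30.9 and 35.3 CPM in SAFB KD, a log2 fold change of 0.13 (SE 0.05) that missed the threshold (adjusted p = 0.0508, 0.0186 to 0.524 over the alternatives). Mrtfa, which encodes MRTF-A, was not called (-0.05, SE 0.05, adjusted p = 0.485), and Mrtfb fell from 36.7 to 42.5 CPM down to 30.1 to 31.7 CPM (-0.36, adjusted p = 2.52e-07). Myocd had no read in any library and Abra, a muscle activator of the pathway, had reads in 1 control library only. Mical2, an enzyme that takes nuclear actin apart, rose from 115 to 122 CPM up to 148 to 154 CPM (0.37, adjusted p = 3.71e-12), and so did the monomer-binding proteins Tmsb4x (0.25, adjusted p = 2.03e-08) and Pfn1 (0.20, adjusted p = 5.23e-06). Scai, a repressor of MRTF, fell (-0.19, adjusted p = 0.00167). The formins Diaph3 (-0.40, adjusted p = 2.86e-11) and Diaph1 (-0.10, adjusted p = 0.0304, lost in 5 of the 6 fits without 1 library and -0.16 without control replicate 3) fell. Of the ternary complex factors, the other partners of SRF, Elk3 (-0.17, adjusted p = 7.76e-05) and Elk4 (-0.24, adjusted p = 7.09e-05) fell and Elk1 was not called (0.02, adjusted p = 0.775). Of the 14 listed regulators, 12 were tested, with a median log2 fold change of -0.08. Of the 12, 3 were higher (25.0%, against 21.4% of all tested genes), 6 were lower (50%, against 20.1%) and 3 were not called. The shares among tested genes that averaged 1 CPM or more were 31.6% higher and 28.7% lower.

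Genes known as SRF and MRTF targets outside the 10 described genes were more often higher than lower. Of 24 tested, 14 were higher, 4 were lower and 6 were not called, which is 58.3% higher against 21.4% of all tested genes and 31.6% of the 12103 that averaged 1 CPM or more. The list was chosen with earlier results of these data known, so these shares are a description. The median log2 fold change of the list was 0.15, and 12 were higher and 6 lower without control replicate 3. The genes with the smallest adjusted p include secreted and matrix-bound proteins. Thbs1 (thrombospondin) went from 1314 to 1445 CPM in control to 2925 to 3083 CPM in SAFB KD, a rise of 1.12 on the log2 scale (adjusted p = 2.81e-28). Ccn2 rose by 0.81 (adjusted p = 7.49e-23) and Ccn1 by 0.60 (adjusted p = 1.94e-19). Ankrd1, a muscle ankyrin repeat protein, rose from 78.9 to 79.2 CPM up to 144 to 153 CPM (0.92, adjusted p = 1.06e-23), and Dstn (destrin, an actin-severing protein) rose by 0.56 (adjusted p = 1.02e-18). Several of these genes are also targets of the YAP and TEAD factors, and the counts do not separate the pathways.

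Targets of SRF with the ternary complex factors, the immediate early genes, split both ways. Of 9 tested, 3 were higher, 4 were lower and 2 were not called, and the median log2 fold change was 0.04. That is 33.3% higher and 44.4% lower, against 21.4% and 20.1% of all tested genes and 31.6% and 28.7% of those that averaged 1 CPM or more. Egr1 fell from 422 to 456 CPM down to 291 to 308 CPM (-0.54, adjusted p = 2.89e-17), and Egr3 (-0.84, adjusted p = 9.07e-17), Egr2 (-0.67, adjusted p = 7.96e-13) and Fos (-0.54, adjusted p = 5.48e-09) fell too. Fosb (0.73, adjusted p = 7.31e-06) and Nr4a1 (0.16, adjusted p = 1.33e-04) rose.

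The matrix and TGF-beta genes that accompany Acta2 in myofibroblasts mostly fell. Of 23 tested, 2 were higher, 14 were lower and 7 were not called, and the median log2 fold change was -0.32. The share called lower was 60.9%, against 20.1% of all tested genes and 28.7% of those that averaged 1 CPM or more. As this list too was chosen with earlier results of these data known, the share is a description. Col1a1, Col1a2, Col3a1, Fn1 and Pdgfrb are also among the fibroblast markers, and all of these but Fn1 were lower. The counts of lower genes in these lists are therefore not separate observations. Postn (periostin) fell from 8.91 to 10.6 CPM down to 3.48 to 3.97 CPM (-1.44, adjusted p = 4.74e-15). Lox (lysyl oxidase, which crosslinks collagen) fell from 4086 to 4137 CPM down to 2720 to 2774 CPM (-0.58, adjusted p = 1.96e-21). Pdgfrb, the PDGF receptor beta chain, fell by 1.13 (adjusted p = 4.79e-25), Ltbp2, a latent TGF-beta binding protein, by 0.74 (adjusted p = 2.76e-18), Smad3, which carries the TGF-beta signal to the nucleus, by 0.59 (adjusted p = 6.63e-15) and Col1a2, a chain of type I collagen, by 0.38 (adjusted p = 4.02e-14), all on the log2 scale. The 2 genes that rose were Fap, a protease of activated fibroblasts, and Smad7, an inhibitor of TGF-beta signalling. Fap went from 0.0691, 0.345 and 0.179 CPM up to 0.625, 0.673 and 0.705 CPM (1.76, SE 0.43, adjusted p = 0.000796). It had only 3, 14 and 6 reads in control and 22, 29 and 37 in SAFB KD. The Fap change was 1.309 without control replicate 1 and 2.48 without control replicate 2. Smad7 went from 37.3 to 39.6 CPM up to 45.7 to 51.2 CPM (0.33, adjusted p = 2.47e-07). Acta2 and Tagln were higher in the same libraries in which these matrix genes were lower. The count of higher genes in this list was 4 without control replicate 1.

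**Figure D4:**
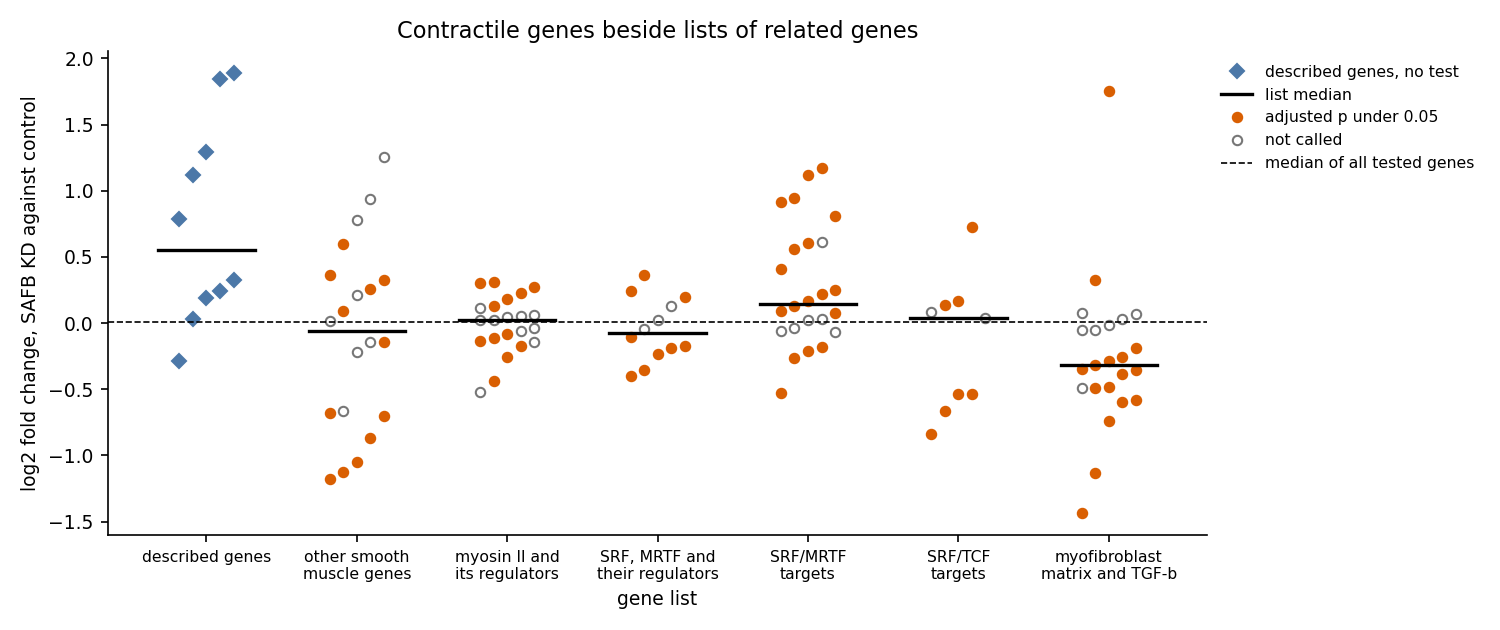
Log2 fold change of SAFB KD against control (y axis) for each tested gene of 7 lists (x axis). Diamonds are the described genes, which carry no test, filled circles are genes with an adjusted p under 0.05, open circles are genes not called, solid bars are list medians and the dashed line is the median of all tested genes, 0.01. The list medians run from -0.32 for the myofibroblast genes to 0.15 for the SRF and MRTF targets, and the described genes have a median of 0.56. The described genes were chosen with this contrast in view, so their median is a description.

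The neighbours of the 10 genes on the chromosome were looked up after the values of the genes were seen. The nearest tested protein-coding gene on each side that did not overlap the described gene gave 20 neighbours. Pcsk7, which overlaps Tagln, was therefore left out. Of the 20 neighbours 6 were higher, 2 were lower and 12 were not called, with a median log2 fold change of 0.10. Among all tested genes 21.4% were higher and 20.1% lower, and among those that averaged 1 CPM or more 31.6% were higher and 28.7% lower. Stambpl1, which ends 757 bases from Acta2 on the opposite strand, rose by 0.51 (adjusted p = 1.03e-11), and Fas, on its other side at 35076 bases, rose by 0.21 (adjusted p = 0.0304). Igsf9, 1169 bases from Tagln2, rose by 1.06 (adjusted p = 1.14e-07). The neighbours of Tagln, Actg2 and Cnn1 were not called with the exception of Rnf214, 22708 bases from Tagln, which fell (-0.25, adjusted p = 7.58e-05). Of the 10 genes, 3 lie on chromosome 9 (Tagln, Cnn1 and Tpm1), and their log2 fold changes were 1.12, 0.24 and -0.29.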

How the data were processed

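The authors deposited counts, whole numbers of reads per gene in 1 table per library, with no scaling. Reads were aligned to GRCm38 with STAR 2.7.9a, per the submitters' processing notes. The methods describe stranded counting of uniquely aligned reads. That the deposited column holds these counts is inferred. Identifiers were matched to GENCODE M21 (54495 of 54532), which is not the annotation release the study names. Groups came from the sample titles. Genes with at least 10 reads over 6 libraries were fitted with edgeR 4.0.16 (quasi-likelihood test, TMM scaling, R 4.3.3), with Benjamini-Hochberg adjustment over 19452 genes at 0.05, 2-sided. CPM used TMM library sizes. The fit was tested on simulated data first. Standard errors are the log2 fold change divided by the square root of F. The series text calls the replicates biological. Alternatives were DESeq2 1.42.0, limma-voom 3.58.1, other scalings and filters, and leaving out each library. The 10 genes, the lists and the promoter search were chosen with earlier results of these data known. Named genes beyond the 10 were the targets, family members and SRF regulators, up to 6 genes of smallest adjusted p and at least 1 CPM from each other list, and markers over 1 CPM. Some genes that this rule names are not reported here. Myh11, Myl12a, Myl12b, Myl6b, Fap, Smad7, Pdgfra, Dcn, Lum, the markers without reads and the neighbours were named outside this rule. Promoters are from RefSeq, and no genome sequence or protein sequence was used here.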

Additional observations from a re-analysis of the deposited data

How the results depend on the processing

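Over 13 alternative fits per gene, the 10 described genes kept their side of the threshold in all 130 values, and the direction changed once, for Cnn2 (-0.003 to 0.037 on the log2 scale over the fits without 1 library). The 10 genes were chosen with this contrast in view, so their steadiness describes the fits and is no support for the calls. Cnn3 (-0.013 to 0.037) and Elk1 (-0.025 to 0.078), also not called, changed sign in such fits. Leaving out each library in turn gave 3 to 4 higher genes in the smooth muscle list, 3 to 8 lower genes in the myosin list, 2 to 4 higher genes in the myofibroblast list and 4 to 6 lower genes among the SRF and MRTF targets, and the other counts moved by less than 1.5 times. Srf passed the threshold with no filter on low counts (adjusted p = 0.0414), with limma-voom (adjusted p = 0.0474), and without SAFB KD replicate 1 or 2, and Diaph1 and Pecam1 lost it in fits without 1 library. The cause was not tested. Replicate numbers did not pair the samples (correlations of 0.0534, 0.0147 and -0.00111), and a fit with a replicate block called 4186 genes higher and 3931 lower, against 4156 and 3908, with 7 and 1 of the 10 genes. Depth limits Acta1, Cnn1, Actg2 and Myl9, with 14 to 241 control reads each. Searching transcripts with words of 50 and 100 bases gave a highest shared percent of 2.02 and 0 among the 10 genes.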
